A study of Mus musculus with 3 samples.

Results

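The potassium channel genes of the mouse were examined for TRα1 binding sites (TRBS) in the striatum. They were defined as all protein-coding genes of the GENCODE M21 annotation (build GRCm38) whose symbol begins with Kcn, which gave 94 of 21938 genes. A TRBS was linked to a gene when its summit, the base with the highest ChIP coverage, lay inside the gene body or within 30 kb of the 5′ end of the gene. This rule linked 263 of the 23988 TRBS, or 1.10%, to 70 of the 94 genes. It produced 265 pairs of a gene and a TRBS, because 2 TRBS lay past the 3′ end of Kcnj9 and within 30 kb upstream of Kcnj10, and were linked to both.

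TRα1 is a nuclear receptor of the thyroid hormone T3, and it binds DNA mainly as a heterodimer with RXR. ChIP-seq was carried out on striatum from adult male mice of the C57BL/6J strain. All the animals carried the same genotype, TRa1 GS-tagged, in which a tagged receptor was expressed only in the GABAergic neurons of the striatum, and they were euthyroid and untreated. Their age was labelled 8, with no unit, and the paper lists this dataset at 8 weeks. The pieces of tissue were crosslinked with disuccinimidyl glutarate and then with formaldehyde. There were 2 TRα1 ChIP libraries and 1 input library, and no other genotype, hormone state or tissue belonged to the comparison. The processed data were 1 list of peaks, with no value for a single library. The spread between the libraries could not be computed, their depth was not analysed here, and no p-value is given. Intervals below are 95% Wilson intervals and cover counting error only. Since the tag was the target of the immunoprecipitation, sites of the untagged receptor in other cells of the tissue were not measured. Marker genes of the labelled cells were checked by the 30 kb rule defined above. A TRBS was linked to 9 of 10 markers of GABAergic and striatal projection neurons, with Adora2a as the exception, to 2 of 10 astrocyte markers, 4 of 10 oligodendrocyte markers and 3 of 10 microglia markers, and 8, 0, 1 and 0 markers of these lists had one within 1 kb of the 5′ end. Over all protein-coding genes these shares were 57.7% and 23.2%. A longer gene offers a longer interval for linkage, and the neuronal markers were longer (median 33.4 kb). The medians were 18.4 kb for the astrocyte, 16.3 kb for the oligodendrocyte and 17.5 kb for the microglia markers. The part of length in these counts was not tested. With 10 markers in a list, the intervals were wide: that of the neuronal list began at 59.6%, that of the astrocyte list ended at 51.0%, and those of the oligodendrocyte (16.8% to 68.7%) and microglia lists (10.8% to 60.3%) included the share of all genes.

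Potassium channels let K+ leave or enter the cell and thereby set the resting potential, shape the action potential and limit repetitive firing. The voltage-gated pore subunits (Kcna, Kcnb, Kcnc, Kcnd, Kcnh and Kcnq) assemble as tetramers, and the modifier subunits (Kcnf, Kcng, Kcns and Kcnv) join them without forming channels alone. The inward rectifiers (Kcnj) and the K2P leak channels (Kcnk) act near rest, the Kcnm, Kcnn, Kcnt and Kcnu channels respond to internal calcium, sodium or pH, and the auxiliary subunits (Kcnab, Kcne, Kcnip and Kcnmb) alter gating or trafficking. Kcnrg, a regulator of channel assembly, was counted with the auxiliary subunits. Striatal projection neurons are known for a strong inward rectification, which holds them at a hyperpolarized potential, and for A-type and M-type currents that delay and restrain their firing.

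The sequences at the summits are shown first for 4 of the 10 strongest linked TRBS, chosen because they lie outside exons and differ in position and in what they contain. Each run holds the 121 bases centred on the summit, read from the GRCm38 reference sequence of RefSeq. Capitals mark the half-sites of a DR4 element, which is a direct repeat of AGGTCA with a spacer of 4 bases, on either strand, in which up to 2 of the 12 bases of the half-sites may differ. The runs of Kcnq3, Kcnab1 and Kcna5 held no such element, and that of Kcnj3 held an element that reads on the minus strand, so its half-sites appear reversed and complemented. The Kcna5 run lies just upstream of the gene, and the other runs lie in introns.
Kcnq3 (chr15:66270490-66270610, plus strand): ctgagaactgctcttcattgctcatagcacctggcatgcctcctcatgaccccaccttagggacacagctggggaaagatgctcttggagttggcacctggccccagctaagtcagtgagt
Kcnab1 (chr3:65228829-65228949, plus strand): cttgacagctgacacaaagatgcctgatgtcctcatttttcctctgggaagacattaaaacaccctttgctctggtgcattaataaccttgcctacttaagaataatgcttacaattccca
Kcna5 (chr6:126535479-126535599, plus strand): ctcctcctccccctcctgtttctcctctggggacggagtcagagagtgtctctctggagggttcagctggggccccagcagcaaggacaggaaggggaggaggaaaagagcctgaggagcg
Kcnj3 (chr2:55532855-55532975, plus strand): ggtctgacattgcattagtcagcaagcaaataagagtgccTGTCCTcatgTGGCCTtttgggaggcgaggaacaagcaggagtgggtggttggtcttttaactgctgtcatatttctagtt

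DR4 elements with at most 1 mismatch were found within 100 bp of the summit in 9 linked TRBS, and these are shown because they are the closest matches to the element that the TRα1/RXR heterodimer is known to bind. Each run is 30 bases long and reads 5′ to 3′ on the strand of the element, with the half-sites in capitals. Kcnq5 and Kcnk2 held the elements without a mismatch. Kcnh1 held elements of this kind in 2 of its TRBS. The last runs are tandem arrays upstream of Kcnt1 and Kcnk1, where matches with at most 2 mismatches recur within 1 summit window, and there the half-sites of all those matches are in capitals.
Kcnq5 (chr1:21459168-21459197, plus strand): tgtggtgAGGTCAcgtgAGGTCAagaattc
Kcnk2 (chr1:189285018-189285047, minus strand): tgaaccgAGGTCAtctgAGGTCAgcaactc
Kcnb2 (chr1:15677810-15677839, minus strand): caaggacAGGTAAtatgAGGTCAcaatggg
Kcnh1 (chr1:192280804-192280833, plus strand): tgaaaggAGGTCActggGGGTCAgagaggg
Kcnh1 (chr1:192399491-192399520, minus strand): gttgtggAGGGCAttcaAGGTCAtttgaga
Kcnk6 (chr7:29238504-29238533, plus strand): gttggcgAGGTCActccAGGTCGgacggag
Kcnk1 (chr8:126022412-126022441, plus strand): ggtacagAGGTCAgaggAGGACAtggggta
Kcnt1 upstream array (chr2:25838631-25838821, minus strand): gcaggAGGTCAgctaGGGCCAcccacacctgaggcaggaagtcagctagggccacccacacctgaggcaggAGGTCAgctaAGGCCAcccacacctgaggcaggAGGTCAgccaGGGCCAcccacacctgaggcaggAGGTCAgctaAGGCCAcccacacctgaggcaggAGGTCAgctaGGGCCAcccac
Kcnk1 upstream array (chr8:125976559-125976713, plus strand): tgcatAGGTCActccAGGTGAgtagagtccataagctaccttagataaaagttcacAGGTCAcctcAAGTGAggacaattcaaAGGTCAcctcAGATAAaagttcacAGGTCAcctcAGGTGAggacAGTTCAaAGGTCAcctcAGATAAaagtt

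At least 1 linked TRBS was present for 70 of the 94 potassium channel genes, or 74.5% (interval 64.8% to 82.2%), against 57.7% of all protein-coding genes. The share among the voltage-gated sodium and calcium channel genes, linked by the same rule, was 33 of 40, or 82.5% (interval 68.05% to 91.3%). These were symbols of Scn followed by a number and a or b, and symbols beginning with Cacna, Cacnb or Cacng. Their lengths are not given here. The intervals of both channel groups overlapped, and each lay above the value of all genes. Several TRBS on 1 gene were common. At least 2 were linked to 51 channel genes (54.3%, against 32.4% of all genes), at least 5 to 20 genes (21.3%, against 6.57%) and at least 10 to 4 genes (4.26%, against 0.852%). The median was 2 TRBS for a potassium channel gene and 1 for all genes.

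A long gene offers a longer interval for linkage, and the channel genes were longer, with a median of 30.8 kb against 17.4 kb for all genes. Per 100 kb of the interval searched, the median was 1.67 TRBS for the channel genes and 1.21 for all genes, and the 95% interval of the first median, from order statistics over the genes (1.16 to 2.19), included the second. When only the 30 kb on either side of the 5′ end were searched, both medians were 1.67, with an interval of 1.67 to 3.33 for the channel genes. In that fixed interval 1.67 stands for 1 TRBS. The median there moves in coarse steps, and equal medians do not show equal density. By that rule 62 of 94 channel genes had a linked TRBS (66.0%, interval 55.9% to 74.7%), against 53.3% of all genes. Shares were then compared within classes of gene length. Below 5 kb, 5 of 7 channel genes had a linked TRBS (71.4%, against 44.5% of all genes of that length). Of the 24 channel genes of 10 to 30 kb, 18 had a linked TRBS (75.0%, against 57.5% of all genes of that length), and the count was likewise 18 of 24 in the class of 30 to 100 kb (against 63.5%). In the class of 5 to 10 kb, 8 of 16 channel genes had one, against 48.4%, and in the class of 100 to 300 kb 8 of 10, against 78.4%. Above 300 kb, all 13 channel genes had at least 1, against 90.8%. In each of the 6 classes the interval of the channel genes included the share of all genes, so that a difference within a class of length was not detectable at this number of genes.

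**Figure D1:**
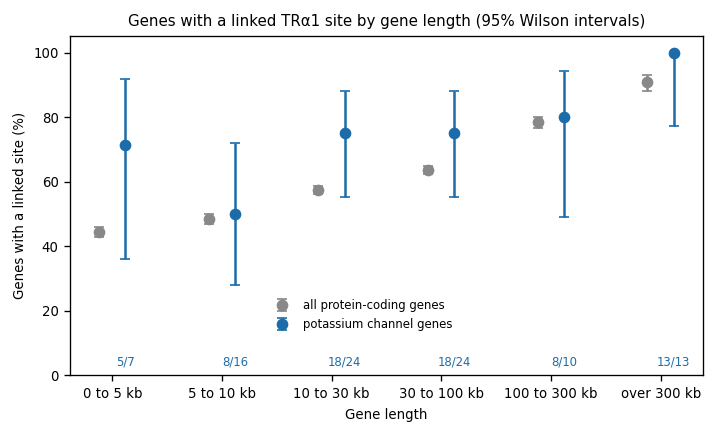
Share of genes with at least 1 linked TRBS (y axis, %) in 6 classes of gene length (x axis) for the potassium channel genes (blue) and for all protein-coding genes (grey). Bars are 95% Wilson intervals and the blue fractions give the channel genes with a TRBS over those in the class; the shares rose with length in all genes, from 44.5% to 90.8%, and the blue bars overlapped the grey points.

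The signal at the linked TRBS was like that of the whole list. The fold enrichment, the ratio of the ChIP pileup (coverage by fragments) to the local background with 1 added to each, had a median of 7.44 over the 263 TRBS (range 4.95 to 85.2) and 7.40 over all 23988. The median pileup was 21 fragments in both. A score of at least 200, where the score is 10 times −log10 q, was reached by 81 linked TRBS (30.8%) and by 31.4% of all TRBS. Of the linked TRBS, 26 (9.89%) exceeded 18.8, the 90th percentile of fold enrichment in the whole list. The medians of fold enrichment and pileup thus differed by little or nothing between the sets.

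**Figure D2:**
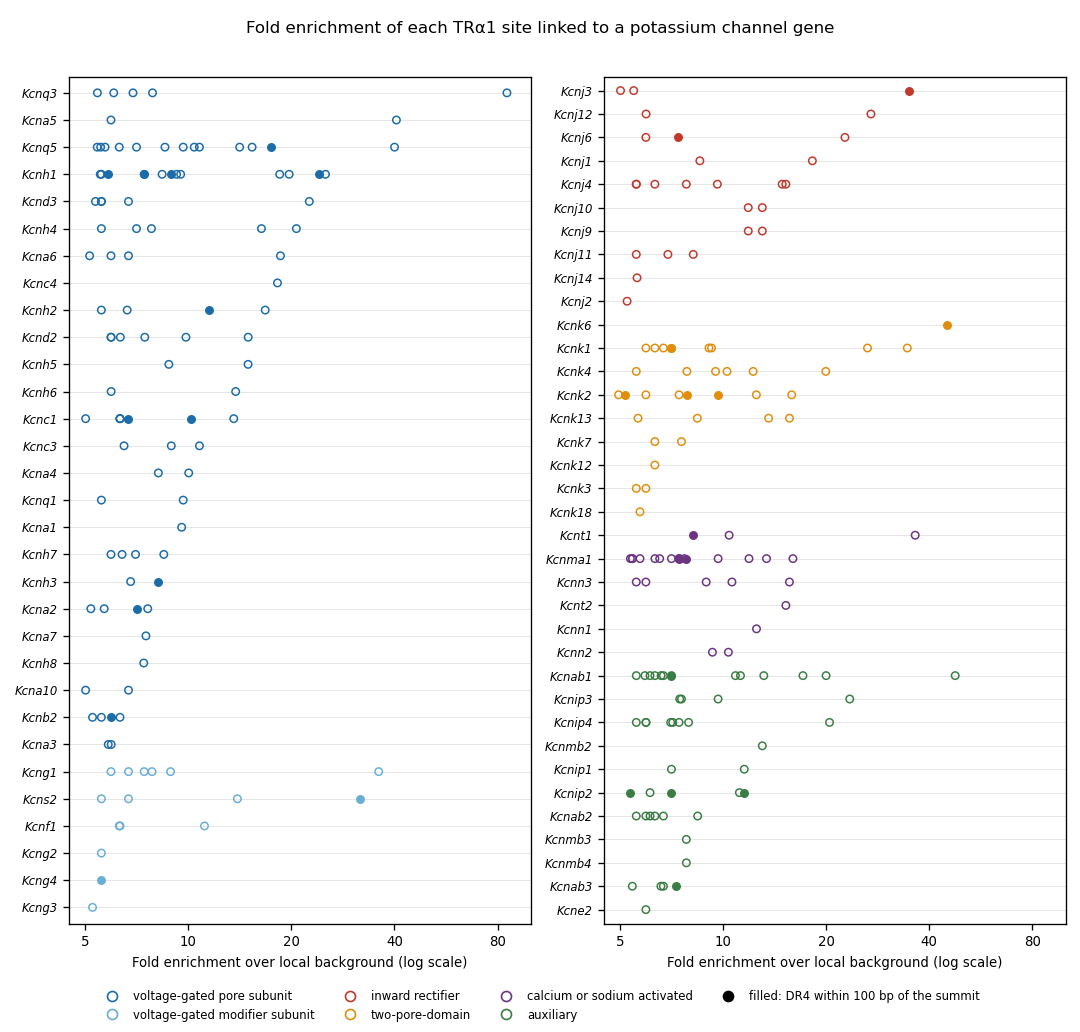
Fold enrichment (x axis, log scale) of every TRBS linked to each of 67 potassium channel genes with a TRBS (y axis), coloured by channel class and ordered within a class by the highest value. Filled points hold a DR4 element within 100 bp of the summit; most points lie between 5 and 20, and the Kcnq3 point at 85.2 stands alone on the right.

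The voltage-gated pore subunits had the highest share of genes with a TRBS among the 6 classes. A linked TRBS was found for 28 of 30 of these genes (93.3%, interval 78.7% to 98.2%, against 57.7% of all genes), with 114 TRBS in all. This interval overlapped that of each other class. The median length of these 30 genes was 37.3 kb, and 63.5% of all genes of 30 to 100 kb had a linked TRBS. Their lengths ran from 1.9 kb (Kcna3) to 563.5 kb (Kcnq5), and the shares of all genes from 44.5% below 5 kb to 90.8% above 300 kb. The part of length in the share was not tested. Every gene of the Kcna (8 genes), Kcnh (8 genes) and Kcnq (5 genes) families had at least 1. The genes without one were Kcnc2, which encodes a fast-spiking Kv3 subunit, and Kcnd1, an A-type subunit. TRBS within 1 kb of the 5′ end were present for 14 of the 30 genes, against 23.2% of all genes.

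The Kcnq family encodes the M-type channels, which restrain repetitive firing. Kcnq3 had the strongest TRBS of any potassium channel gene, with a fold enrichment of 85.2 and a pileup of 247 fragments, in an intron 16092 bp downstream of the 5′ end. Its other TRBS had fold enrichments of 7.87 (48 bp downstream of the 5′ end), 5.43, 6.90 and 6.06. One TRBS thus stood far above the other 4 in this gene. Kcnq5 had 13 TRBS, with the highest fold enrichment, 40.04, at 803 bp downstream of the 5′ end and a value of 15.4 at 1466 bp upstream. Its TRBS with a perfect DR4 element had a fold enrichment of 17.4 and lay 502720 bp downstream in an intron of the same gene, and the closest 5′ end to that summit was that of Khdc1b, at 75666 bp. Kcnq1, the cardiac and epithelial member, had 2 TRBS with fold enrichments of 9.67 and 5.58, both nearer to the 5′ end of another gene.

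The Kcnh family (EAG, ERG and ELK channels) had 33 TRBS. Kcnh1, which encodes an EAG channel, had 13 over its 319.4 kb, all nearest to its own 5′ end. Their fold enrichments ranged from 5.54 to 25.2, with 18.5 at 10 bp upstream of the 5′ end and 25.2, 24.2 and 19.7 at 79141, 121748 and 177680 bp downstream. DR4 elements were found at 4 of these summits, the highest count for a potassium channel gene, and the strongest of these 4 had the fold enrichment of 24.2. Kcnh4, an ELK channel known for its striatal expression, had 5 TRBS in and around its 19.6 kb. Its 2 strongest, with fold enrichments of 20.7 and 16.4, lay within 1 kb of the 5′ end.

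Among the Kcna genes, which encode Kv1 channels that control spike threshold, Kcna5 had the strongest TRBS, with a fold enrichment of 40.5 at 127 bp upstream of the 5′ end. Kcna4, a subunit of A-type channels, had fold enrichments of 10.04 and 8.18 at 611 and 2518 bp downstream, and Kcna2 had 4 TRBS between 5.20 and 7.62. Kcna6 had 18.6 at 21868 bp downstream and 6.69 or less at its other 3. The single TRBS of Kcna1 had a fold enrichment of 9.57. Kcna7 had a single TRBS of 7.53, 575 bp from the 5′ end of Snrnp70. Kcna10 had values of 5.02 and 6.69. Fold enrichments above 10.04 were found only at Kcna5 and Kcna6 among these genes.

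The delayed rectifier gene Kcnb2, of 436.5 kb, had 4 TRBS, none above 6.32, and the one of 5.95 held a DR4 element with 1 mismatch. That TRBS lay 390585 bp downstream in an intron, and the closest 5′ end was that of Terf1, at 127807 bp. Kcnd2, which encodes the A-type subunit Kv4.2, had 6 TRBS. The strongest (fold enrichment 14.97, pileup 54) lay 5 bp from the 5′ end. Its relative Kcnd3 had no TRBS within 1 kb, and its strongest, 22.6, lay 119933 bp downstream. The 5′ end of Ddx20 was closer to that summit, at 115311 bp.

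The modifier subunits had a TRBS in 6 of 10 genes (60%, interval 31.3% to 83.2%, against 57.7% of all genes), with 16 TRBS. Kcng1 had 6, of which the strongest (fold enrichment 36.0) lay 18073 bp upstream and those within 1 kb had 8.88 and 5.95. Kcns2 had 4 TRBS, all upstream of the gene, with 31.8 at 7918 bp and a DR4 element with 2 mismatches at that summit. Kcnf1 had 11.2 at 2592 bp downstream, and 6.32 and 6.29 at its other TRBS. Kcns1, Kcns3, Kcnv1 and Kcnv2 had none.

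Of the inward rectifiers, 10 of 15 had a linked TRBS (66.7%, interval 41.7% to 84.8%, against 57.7% of all genes), with 24 TRBS. The Kir2 channels carry most of the inward rectification of projection neurons. Among them, Kcnj4 had 7 TRBS, led by 15.2 at 7020 bp and 14.9 at 23652 bp downstream, and Kcnj12 had 27.0 at 359 bp upstream and 5.96 at 617 bp downstream. Kcnj2 had 1 TRBS of 5.25, at 1400 bp upstream, near the lower end of the list. The GIRK genes encode channels that open on activation of Gi-coupled receptors. Kcnj3 had 34.97 at 96945 bp downstream, with a DR4 element, and 5.02 and 5.48 elsewhere. Kcnj6 had 22.7 at 146992 bp, 7.40 at 128220 bp and 5.95 at 1988 bp downstream. Kcnj9 shared its 2 TRBS, of 11.8 and 13.02, with Kcnj10, which is best known from astrocytes, and none of these was closest to the 5′ end of Kcnj10. Kcnj5 had none, and the nearest lay 1516 bp beyond its interval; that one, with a fold enrichment of 18.2, was linked to Kcnj1 at 3373 bp downstream of its 5′ end. The KATP pore gene Kcnj11 had 3 TRBS of at most 8.18, and Kcnj8 had none.

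The K2P leak channels had a TRBS in 9 of 14 genes (64.3%, interval 38.8% to 83.7%, against 57.7% of all genes), with 34 TRBS. Kcnk1 had 9 TRBS around its 35.5 kb, the highest number per 100 kb of the interval among the channel genes (13.7), and all were nearest to its own 5′ end. Fold enrichments of 34.5 and 26.4 lay at 19748 and 2439 bp downstream, and the other 7 were at most 9.25. Kcnk2, which encodes the mechanosensitive channel TREK-1, had 8 TRBS, all downstream of the 5′ end and none within 50 kb of it. The strongest (fold enrichment 15.9, pileup 92, local background 4.86, the highest of the linked TRBS) lay 58316 bp downstream, 125 bp from the annotated start of another transcript of the gene, and its TRBS with a perfect DR4 element had 7.87 at 117210 bp. For Kcnk6 and Kcnk4 each link was to a TRBS nearer to a neighbouring gene. The single TRBS of Kcnk6, with a fold enrichment of 44.9, lay 5948 bp upstream and 134 bp from the 5′ end of Yif1b. None of the 6 TRBS of Kcnk4 was nearest to its own 5′ end, and that with the highest fold enrichment (19.9) lay 89 bp from the 5′ end of Prdx5.

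Among the channels activated by calcium or sodium, 6 of 8 genes had a TRBS (75.0%, interval 40.9% to 92.9%, against 57.7% of all genes), with 28 in all. The median length of these 8 genes was 121.6 kb, and 78.4% of all genes of 100 to 300 kb had one. Their lengths ran from 16.4 kb (Kcnn4) to 725.1 kb (Kcnma1), and the part of length in the share was not tested. Kcnma1, which encodes the BK channel, had 16, the most of any potassium channel gene, spread over its 725.1 kb, which corresponds to 2.12 per 100 kb. Their fold enrichments ranged from 5.36 to 15.99, with 13.4 and 11.9 next to the highest, and none lay within 1 kb of the 5′ end. The nearest to the 5′ end, of 5.72 at 9907 bp, was 275 bp from the start of another annotated transcript. Kcnt1, a sodium-activated channel, had 36.4 at 35525 bp downstream, 10.4 at 3103 bp, and 8.18 at the upstream array shown above. The summit at that array lay 25004 bp upstream of Kcnt1, and the closest 5′ end was that of Sohlh1, at 8518 bp. Among the SK channel genes, Kcnn3 had 5 TRBS of up to 15.6 and Kcnn2 had 9.31 at 482 bp upstream and 10.4 at 3885 bp downstream. The single TRBS linked to Kcnn1 lay 78 bp from the 5′ end of Arrdc2. Kcnn4 and Kcnu1 had none.

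The auxiliary subunits were divided by family. All 3 Kcnab genes and all 4 Kcnip genes had TRBS, 24 and 19 respectively, while 1 of 5 Kcne genes had one. For the class, the count was 11 of 17 genes (64.7%, interval 41.3% to 82.7%, against 57.7% of all genes). Kcnab1, a β subunit that speeds the inactivation of Kv1 channels, had 14 TRBS. The strongest had a fold enrichment of 47.6 at 119505 bp downstream, the second highest value of all the linked TRBS, and 20.0 and 17.1 followed at 158286 and 138387 bp, whereas the TRBS at 564 bp upstream had 6.69. Of the 14, 7 lay in its body but nearer to the 5′ end of Ssr3. Among the KChIP genes, whose products bind Kv4 channels, Kcnip2 had 5 TRBS of up to 11.5, and DR4 elements at 3 of the summits. Kcnip3 had 23.4 at 9821 bp upstream, close to Prom2 (9552 bp). Kcnip4 had 8 over 1135.4 kb, with the highest, 20.5, at 399378 bp downstream. Kcnmb2, Kcnmb3 and Kcnmb4, the β subunits of BK channels, had 1 TRBS each, of 13.02, 7.81 and 7.81.

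**Figure D3:**
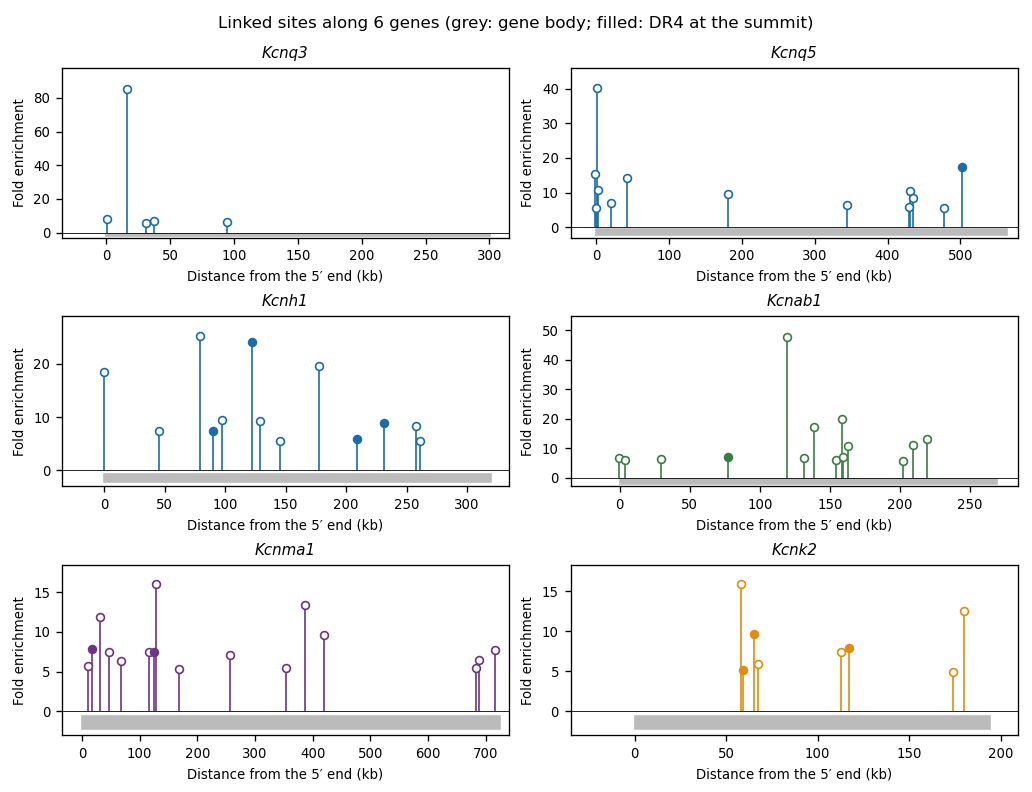
Linked TRBS along Kcnq3, Kcnq5, Kcnh1, Kcnab1, Kcnma1 and Kcnk2, with the distance from the 5′ end in kb (x axis) and the fold enrichment (y axis, own scale in each panel). The grey bar is the gene body and filled points hold DR4; Kcnq3 has 1 dominant TRBS (85.2), while Kcnma1 has 16 between 5.36 and 15.99.

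The positions of the pairs differed from those of all genes. Of the 265 pairs, 156 (58.9%, interval 52.9% to 64.6%) had the summit in an intron, against 35.1% of the pairs of all genes, and 69 (26.0%) lay over 100 kb downstream of the 5′ end, against 12.7%. A further 43 pairs (16.2%, against 27.4%) were upstream of the gene by more than 1 kb and 18 (6.79%, against 15.1%) past its 3′ end. Coding exons held 3 summits (Kcng1, Kcnh6 and Kcnip2) and the non-coding parts of exons 10. The channel genes were also the longer ones, as given above, and the part of length in these shares was not tested. Within 30 kb of the 5′ end, where the interval is the same for each gene, 99 of 160 pairs lay downstream (61.9%, interval 54.2% to 69.0%), against 53.8% for all genes.

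A TRBS within 1 kb of the 5′ end was found for 30 of the 94 channel genes (31.9%, interval 23.4% to 41.9%), against 23.2% of all genes. The 35 TRBS at these positions had a median fold enrichment of 7.81, close to 7.44 for the other 228. Their median GC content was 66.2%, against 51.2% for the others. For comparison, all TRBS of the list within 1 kb of a 5′ end had a median GC content of 66.2%. Among the strongest at these positions were those of Kcna5 (40.5), Kcnq5 (40.04) and Kcnj12 (27.0).

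**Figure D4:**
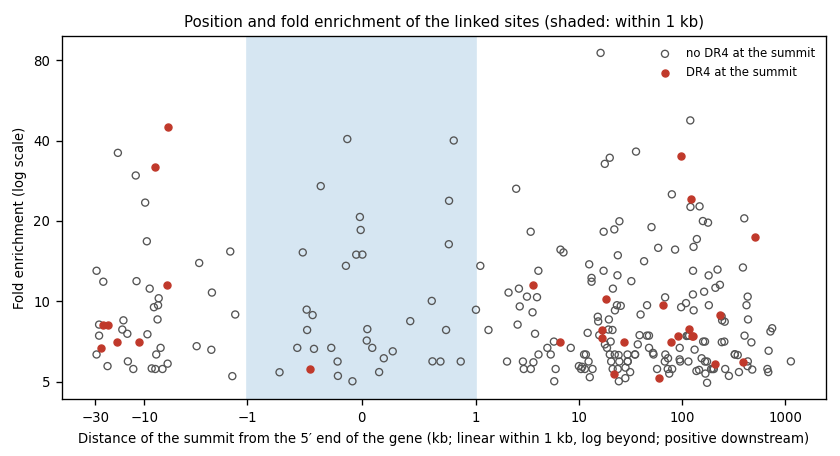
Signed distance of each summit from the 5′ end of the linked gene (x axis, kb, linear within 1 kb and logarithmic beyond, positive downstream) against fold enrichment (y axis, log scale) for the 265 pairs. Red points hold DR4 at the summit; 1 of them lies in the shaded zone within 1 kb, and the highest point, of Kcnq3, lies at 16092 bp downstream.

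A TRBS in the interval of a gene was not always closest to that gene. In 198 of the 265 pairs (74.7%, against 53.8% of the pairs of all genes) the nearest 5′ end of a protein-coding gene was that of the channel gene itself. With this stricter link 60 of 94 channel genes kept a TRBS (63.8%, interval 53.8% to 72.8%), against 39.8% of all genes. The other 67 pairs included 38 inside the body of the channel gene, and 11 within 1 kb of the 5′ end of the other gene, among which the Kcnk6 link had the highest fold enrichment (44.9). For 10 channel genes, Kcna7, Kcne2, Kcnip1, Kcnj10, Kcnj14, Kcnk4, Kcnk6, Kcnk7, Kcnn1 and Kcnq1, every linked TRBS was nearer to another gene. At the 30 kb limit, the 9 pairs 25 to 30 kb from a 5′ end and outside the gene had a median fold enrichment of 8.18 (5.96 to 13.02), and the 11 TRBS just outside, at 30 to 35 kb, had 8.93 (5.33 to 23.4).

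DR4 elements with at most 2 mismatches were present within 100 bp of the summit in 29 of the 263 linked TRBS (11.0%, interval 7.79% to 15.4%), against 13.1% of all TRBS. In windows of the same width 5 kb to the right of these summits, 8 of 263 held one (3.04%, interval 1.55% to 5.89%), against 2.301% for the whole list. Allowing 1 mismatch gave 9 TRBS (3.42%, against 3.11%), and allowing 3 gave 90 (34.2%, against 38.2%). A linked TRBS with DR4 was present for 19 of the 94 channel genes (20.2%, interval 13.3% to 29.4%), against 14.1% of all genes. The share at channel genes was within counting error of the share in the whole list at each number of mismatches.

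**Figure D5:**
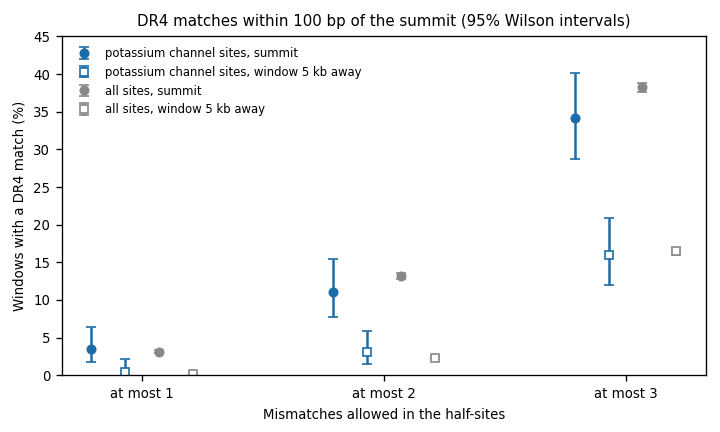
Share of 201-base windows with a DR4 match (y axis, %) at the summit (circles) and 5 kb away (squares), with 1, 2 or 3 mismatches allowed (x axis), for the 263 TRBS linked to potassium channel genes (blue) and all 23988 TRBS (grey). Bars are 95% Wilson intervals; summits exceed the windows 5 kb away in both sets, and the blue and grey summit intervals overlap.

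In the whole list, DR4 was rarer within 1 kb of a 5′ end (6.35%) than in the other TRBS (14.9%). Among the linked TRBS it was present in 1 of the 35 within 1 kb (2.86%, interval 0.506% to 14.5%), that of Kcng4. Of the other 228 it was present in 28 (12.3%, interval 8.63% to 17.2%), and the intervals of both shares overlapped. In the RefSeq promoter sequences, which span the start of a gene and were available for 69 channel genes, 1 held a DR4 match (1.45%), against 3.15% of 16522 genes. With 1 match and no interval computed, no difference can be read from these promoter shares. Of the 10 strongest linked TRBS, 2 held DR4, those of Kcnk6 and Kcnj3. The median fold enrichment was 7.44 in the 29 linked TRBS with DR4 and 7.44 in the 234 without. In the whole list the medians were 8.18 and 7.15. No interval was computed for these medians, so whether the linked TRBS differ from the whole list is not known. Many TRBS share the same fold enrichment, because 51.7% of the linked TRBS had the lowest local background of the list, against 42.3% of all TRBS.

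Repeated matches occurred at 3 linked TRBS, which held at least 3 DR4 matches in 1 summit window (1.14%, interval 0.389% to 3.30%), against 0.258% of all TRBS. The Kcnt1 array held 5 and the Kcnk1 array 6. The Kcnj6 TRBS at 128220 bp held 12, which lie in a short tandem repeat of 5 bases. Their fold enrichments were 8.18, 7.07 and 7.40.

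Other motifs were searched in the same windows on both strands without mismatches. The AP-1 motif TGANTCA was present in 33 linked TRBS (12.5%, interval 9.08% to 17.1%), against 11.5% of all TRBS, and in 1 of the 35 within 1 kb of a 5′ end. A single half-site, AGGTCA, which the DR4 element also contains, was present in 42 (15.97%, against 17.8%). The MEF2 motif CTANNNNTAG was present in 11 (4.18%, against 3.21%) and the GC box GGGCGG in 34 (12.9%, against 18.2%), of which 14 were among the 35 TRBS within 1 kb of a 5′ end (40%, against 52.8% of all such TRBS). The intervals of the AP-1, half-site and MEF2 shares included the shares of the whole list, and that of the GC box (9.40% to 17.5%) lay below it. Away from the 5′ ends the GC box was present in 8.77% of the linked TRBS, against 9.27% of all such TRBS. In the RefSeq promoters it was present for 43 of 69 channel genes (62.3%), against 51.0% of 16522 genes. No interval was computed for these promoter shares.

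Lists of channel genes by tissue were then compared by their counts. All 14 genes of a list known for striatal currents had a linked TRBS, against 57.7% of all genes (among them Kcnj2, Kcnj4, Kcna2, Kcna4, Kcnd2, Kcnq3, Kcnq5, Kcnma1, Kcnip2, Kcnab1, Kcnh4 and Kcnt1). The median was 5.5 TRBS per gene, and 10 of the 14 had one within 1 kb of the 5′ end, against 23.2% of all genes. A second list of 14 genes was called non-neuronal, a name that does not hold for Kcnk18. Of these genes, 5 had a linked TRBS (Kcnj1, Kcnq1, Kcna7, Kcna10 and Kcnk18). This share of 35.7% had an interval of 16.3% to 61.2%, which included the 57.7% of all genes. None of the 14 had a TRBS within 1 kb or a linked TRBS with DR4, against 23.2% and 14.1% of all genes. Kcnj8, Kcnj13, Kcnj15, Kcne1, Kcne3, Kcnu1, Kcnk5, Kcnmb1 and Kcnn4 had no link. The median gene length was 57.1 kb in the first list and 14.96 kb in the second, so length moved with the count, and its part in the difference was not tested. Both lists were chosen with results of these data known.

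A partner list held 17 genes of proteins that bind potassium channels or act with them. All 17 had a linked TRBS, against 57.7% of all genes, with a median of 3. The count was 14 when the nearest 5′ end had to be that of the gene. It was 13 within 30 kb of the 5′ end only, and 12 at a score of at least 200. For Abcc9, Lrrc26 and Amigo1, no linked TRBS was nearest to the own 5′ end. Dpp6, which binds Kv4 channels, had 17, of up to 25.7, and Ank3, the ankyrin that anchors M-type channels at the axon initial segment, had 16, of up to 11.2. Cntnap2 had 12 over 2244.9 kb. Adam22, the receptor of Lgi1, had 5, of up to 28.6, and Lgi1 itself 3, of up to 11.2. The scaffold Dlg4 had 8 and Kctd16, an auxiliary subunit of GABAB receptors, also 8. The KATP subunit Abcc8 had 4, of up to 23.4, and Abcc9 had 1 of 5.58. Dpp10, Dlg1, Amigo1, Lrrc26, Lrrc38, Lrrc52, Lrrc55 and Kctd12 had 1 to 3 each. The median length of these genes was 75.5 kb, and 63.5% of all genes of 30 to 100 kb had a linked TRBS. Their lengths ran from 1.27 kb (Lrrc26) to 2244.9 kb (Cntnap2). Over all genes the share was 44.5% below 5 kb, 78.4% at 100 to 300 kb and 90.8% above 300 kb. The part of length in the count was not tested.

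The 24 channel genes without a link were Kcnc2, Kcnd1, Kcne1, Kcne1l, Kcne3, Kcne4, Kcnj5, Kcnj8, Kcnj13, Kcnj15, Kcnj16, Kcnk5, Kcnk9, Kcnk10, Kcnk15, Kcnk16, Kcnmb1, Kcnn4, Kcnrg, Kcns1, Kcns3, Kcnu1, Kcnv1 and Kcnv2. The next TRBS lay between 1.52 and 129 kb beyond their intervals, with a median of 31.7 kb. Kcnc2 (195.9 kb) and Kcnk10 (148.9 kb) were the longest of these genes. The list holds only TRBS with a score of at least 60, so weaker binding at these genes was not visible in it.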

How the data were processed

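TRα1 ChIP-seq of the striatum comprised 2 ChIP libraries and 1 input library, grouped by their titles. Per the labels, the authors used Bowtie2 2.3.2.2 and MACS2 2.1.1.20160309.0 on GRCm38. Whether the ChIP libraries were pooled, and how duplicates were treated, is not given in the sources used here. The single deposited list gives for each site the pileup (a signal, the fragment coverage at the summit), the fold enrichment (a ratio of pileup to local background, 1 added to each), −log10 p and −log10 q values, and a score. The authors kept scores of at least 60. Sites were linked to the GENCODE M21 genes in Python 3.11.15 (pandas 2.3.3, numpy 2.4.6), mitochondrial genes left out. Pileup and fold enrichment together gave the local background. DR4 was searched within 100 bp of the summit with at most 2 mismatches, and the steps were tested on simulated data. No significance test was made.

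The members and gene lists were chosen with earlier results of these data known. Genes were named by a rule: the 10 strongest linked sites, the 5 genes with the most sites, each DR4 element with at most 1 mismatch, the 3 strongest genes of each channel class, and the striatal, non-neuronal and partner lists. Further channel genes were named after their values were seen. Alternatives were other link rules, a score of at least 200 and other mismatch limits. Values of single genes were left out for some members, which are not reported here but are included in the counts.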

Additional observations from a re-analysis of the deposited data

How the results depend on the processing

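No paired analysis was possible because the list holds no values for single libraries, and for the same reason no library was left out in turn. Among 52 alternative values of the main counts, 35 stayed inside the 95% interval of the main value or, for counts, within 1.5 times of it. Linking only within 30 kb of the 5′ end left 158 sites, of which 22.2% lay within 1 kb. Linking by gene body alone left 53.2% of the channel genes with a site (all genes: 32.4%) and 9.14% of sites within 1 kb, and a limit of 100 kb gave 96.8% of genes (all genes: 78.7%), 453 sites and 7.73%. A score of at least 200 left 48.9% of channel genes (all genes: 30.6%), 81 sites, a median density of 0 per 100 kb, a median fold enrichment of 15.2 (all sites: 14.5) and 1 gene of the non-neuronal list. Requiring the nearest 5′ end to be that of the gene gave 63.8% of genes and 3 genes of the non-neuronal list. DR4 was present in 3.42% of linked sites with 1 mismatch, 34.2% with 3 and 15.6% when the whole peak was searched (all sites: 17.3%). When the 3 summits with repeated matches were not counted, an alternative chosen after seeing the data, the share was 9.89% (all sites: 12.9%). The share of channel genes exceeded that of all genes under each of the link rules and scores above. With no count per library, depth limits are not known.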

Other observations

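Genes outside the rule, because they are not protein-coding, share the symbol prefix. The antisense gene Kcnq1ot1, the imprinted transcript that starts inside Kcnq1, had 1 TRBS, 218 bp upstream of its own 5′ end, with a fold enrichment of 5.58, and this TRBS was also linked to Kcnq1. Kcnmb4os2 had 1 TRBS of 7.81 at 21 bp upstream, which was the same as that linked to Kcnmb4. All 4 TRBS of Kcnab3os were also linked to Kcnab3. Kcnd3os and Kcnmb4os1 had none.

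Among the marker genes of GABAergic and striatal projection neurons, the highest fold enrichments were 42.4 at Ppp1r1b and 38.3 at Bcl11b, and Foxp1 had 25 linked TRBS. The oligodendrocyte gene Mbp had 11, of up to 32.7.

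The spacing of the TRBS within 1 channel gene was also measured. In 58 of 195 pairs of neighbouring TRBS of a gene (29.7%) the summits were within 5 kb of each other, and the median spacing was 12.04 kb. The same values over all genes are not given here, so whether the channel genes differ is not known.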
